A study of Mus musculus with 45 samples.

Results

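The Cyp4a subfamily was followed through 6 genes, Cyp4a10, Cyp4a12a, Cyp4a12b, Cyp4a14, Cyp4a31 and Cyp4a32, which were looked up by symbol among the 22080 genes of the array table; all 6 were present, each with 1 probe set. The probe sets were 10507163 for Cyp4a10, 10507143 for Cyp4a12a, 10507152 for Cyp4a12b, 10515187 for Cyp4a14, 10507171 for Cyp4a31 and 10507177 for Cyp4a32. The 45 arrays covered liver, kidney and brain of male C57BL/6 mice, 7 weeks old by the labels, on 5 diets, with 3 arrays for each organ and diet. Control mice ate AIN-93, a purified rodent diet. The high-cholesterol diet (HCD) was AIN-93 with 0.5% cholesterol, and it was shared by the other 3 groups: HCD+Gl-1 and HCD+Gl-2 added 1.0% of an extract of the mushroom Ganoderma lucidum, and HCD+Sim added simvastatin, a drug that blocks cholesterol synthesis, at 0.03 g/100 g. The Gl-2 mushroom was grown on a substrate with 10 mM acetylsalicylic acid and the Gl-1 mushroom on a substrate without it. Tissue was taken on day 43 after 8 h without food. Each diet had 8 mice; in each organ 4 of them gave the RNA of pool A, the remaining 4 gave pool B, and all 8 went into pool C, as the methods describe; on that description a group of 3 arrays held only 2 separate pools, and p-values measure the spread between such pools.

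CYP4A enzymes are cytochrome P450 monooxygenases of the endoplasmic reticulum that put a hydroxyl group on the last carbon of medium- and long-chain fatty acids, the first step of omega oxidation; alcohol and aldehyde dehydrogenases then make dicarboxylic acids, which peroxisomes shorten. In kidney the same reaction turns arachidonic acid into a vasoactive hydroxyeicosatetraenoic acid. Cyp4a10 and Cyp4a14 are textbook targets of the fasting- and fibrate-activated receptor PPAR alpha in mouse liver, whereas Cyp4a12a and Cyp4a12b are known as male-biased, androgen-dependent genes, Cyp4a12a being the main arachidonic acid hydroxylase of male mouse kidney. In the RefSeq annotation all 6 genes lie in a single cluster on chromosome 4, where, in rising coordinates, Cyp4a12a and Cyp4a12b come first and Cyp4a14, Cyp4a10, Cyp4a31 and Cyp4a32 follow. Cyp4a10, Cyp4a31 and Cyp4a32 are close copies of each other, as are Cyp4a12a and Cyp4a12b, so part of what each probe set reads may come from its neighbour's transcript, and values within these 2 sets were not taken as independent.

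The promoter table matched 1 of the 6 genes, Cyp4a32, and its sequence is shown because Cyp4a32 varied in liver together with Cyp4a10, Cyp4a14 and Cyp4a31. The 300 bases below run from 250 bases before the RefSeq start to 50 bases after it (GRCm38.p6, chr4:115600688-115600987, plus strand), with the only motif match in capitals.
Cyp4a32 promoter: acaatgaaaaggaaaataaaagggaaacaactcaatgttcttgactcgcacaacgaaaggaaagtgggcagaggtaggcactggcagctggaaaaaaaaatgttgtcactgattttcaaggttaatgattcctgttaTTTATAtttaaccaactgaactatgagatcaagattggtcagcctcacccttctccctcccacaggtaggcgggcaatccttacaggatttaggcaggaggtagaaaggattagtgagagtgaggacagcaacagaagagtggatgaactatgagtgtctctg
Both strands were searched for the nuclear receptor hexamer AGGTCA, for the direct repeat AGGTCANAGGTCA with up to 2 mismatches, a spaced repeat of the hexamer and the arrangement that PPAR alpha with its partner RXR binds, and for TATAAA. The capitals mark TATAAA on the minus strand, at bases 138 to 143 of the window. TATAAA was found in 13.6% of the 32851 promoters of the table, the hexamer in 16.3% and the direct repeat in 3.86%; neither of these last motifs was found in the Cyp4a32 window.

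Array values are log2 intensities as the authors normalized them, so a difference of 1 is a doubling, and levels are compared only within a gene. A gene was called differentially expressed (DE) when its log2 fold change exceeded 0.7 in size and its Benjamini-Hochberg adjusted p over all 22080 genes was at most 0.05 in limma, fitted to the 15 groups and 45 arrays together. Over all genes, an unadjusted p under 0.05 was met by 10.3% to 21.3% in the 10 diet comparisons within liver and by 3.3% to 8.97% in the 7 within kidney, and unadjusted counts below are to be read against these shares. An exact permutation test of 3 arrays against 3 cannot give a p under 0.1, so none was used. All comparisons of a treatment with HCD use the same 3 HCD arrays. The organ labels held against markers: 7 of 7 hepatocyte, 10 of 10 kidney and 6 of 6 brain genes had every array of their own organ above every other array, although the free-text descriptions of liver and kidney samples speak of brain. Markers of other tissues moved in some liver arrays. The log2 of the summed signal of 11 pancreas acinar genes was 11.02 and 11.64 in HCD+Sim pools A and B and 9.75 in pool C, against 9.49 to 9.79 in the other liver arrays; 10 squamous epithelium genes gave 9.59 and 10.24 in Control pools A and B and 8.59 to 8.89 elsewhere in liver; and 15 immediate early genes gave 13.12 and 13.56 in HCD+Gl-2 pools A and C and 11.83 in pool B. The 7 hepatocyte markers summed to between 16.07 and 16.20 in every liver array. In bulk RNA, fewer cells that express a gene and less RNA per cell cannot be told apart.

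All 6 genes were expressed in liver and kidney and lay near the lower end of the scale in brain. On Control, the liver means were 10.86 for Cyp4a10, 10.42 for Cyp4a14, 10.81 for Cyp4a31, 11.52 for Cyp4a32, 11.86 for Cyp4a12a and 11.86 for Cyp4a12b. The brain means of the same genes were 5.25, 5.24, 3.80, 4.33, 4.03 and 4.55. Only 4.82% (Cyp4a31) to 19.2% (Cyp4a10) of all genes had a lower mean in the same brain arrays, and no detection call stands beside these values here, so no size is given for differences from brain. All 6 were DE and higher in liver than in brain, where 32.7% of all genes were DE, and in kidney than in brain, where 30% were. In brain the diets made no Cyp4a gene DE by limma's F test over the 5 diets (0 of 6, and 0 of 6 at an unadjusted p under 0.05), beside 0.371% of all genes.

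**Figure D1:**
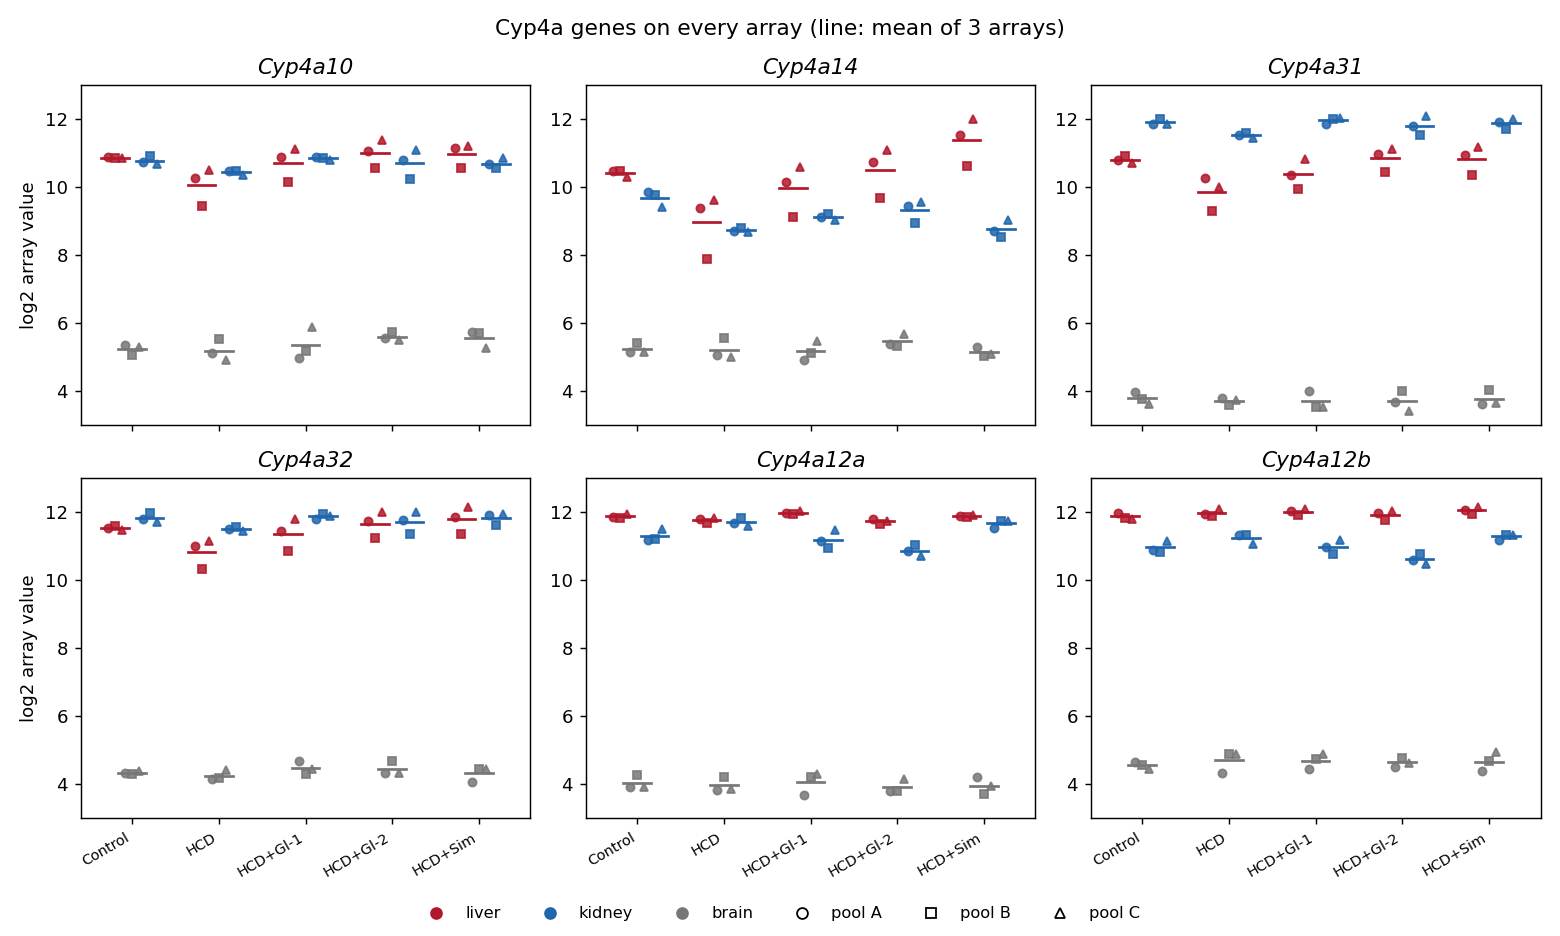
Log2 array value (y axis) of each Cyp4a gene on the 5 diets (x axis); colours give the organ, symbols the pool, and a line the mean of 3 arrays. Liver values of Cyp4a10, Cyp4a14, Cyp4a31 and Cyp4a32 dip on HCD and spread widely between pools, liver values of both Cyp4a12 genes stay between 11.63 and 12.15, and all brain values lie between 3.42 and 5.90.

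In liver, 4 genes of the family varied with diet in the 45-array fit and 2 hardly did. Over the 15 liver arrays Cyp4a14 ran from 7.88 (HCD pool B) to 12.00 (HCD+Sim pool C), a 17.4-fold range. Cyp4a10, Cyp4a31 and Cyp4a32 each covered 3.54- to 3.85-fold. These ranges span pools as well as diets. Within pool B, Cyp4a14 ran from 7.88 on HCD to 10.63 on HCD+Sim. Cyp4a12a ran from 11.63 to 12.02 and Cyp4a12b from 11.75 to 12.15, ranges of 1.3- and 1.32-fold. The F test over the 5 diets called 4 of the 6 genes, beside 8.7% of all genes: adjusted p was 5.8e-05 for Cyp4a14, 0.0021 for Cyp4a31, 0.0070 for Cyp4a32 and 0.032 for Cyp4a10, against 0.60 for Cyp4a12a and 0.80 for Cyp4a12b. These calls rest on a spread shared by the 3 organs. The SD of Cyp4a14 within liver groups was 0.71, exceeded by 11 of the 22080 genes, against 0.21 in kidney and 0.23 in brain, and limma's moderated SD over all arrays was 0.40. Fitted to the 15 liver arrays alone, no Cyp4a gene passed the F test, Cyp4a14 having an adjusted p of 0.080 and the others 0.15 or more; without HCD pool B, 2 of the 6 passed in the 45-array fit.

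The first diet comparison asked what cholesterol alone did. Cyp4a14 and Cyp4a31 were DE and lower on HCD than on Control, 2 of 6 genes beside 0.245% of all genes, and Cyp4a10 and Cyp4a32 lay lower without passing. Cyp4a14 read 10.48, 10.47 and 10.29 in Control pools A, B and C and 9.38, 7.88 and 9.64 in HCD pools A, B and C. The Control arrays lay close together (SD 0.11), and every HCD array was below them, pool B by far the most (SD 0.95). The log2 fold change was -1.45 ± 0.33 (SE, n = 3 arrays a group), or 2.73-fold lower, with a limma adjusted p of 0.012. Cyp4a31 read 10.80, 10.90 and 10.72 on Control and 10.26, 9.30 and 10.00 on HCD, again without overlap, with a log2 fold change of -0.95 ± 0.20 and an adjusted p of 0.0072. Cyp4a10 (10.87, 10.86 and 10.85 against 10.28, 9.44 and 10.50) had a log2 fold change of -0.79 with an adjusted p of 0.098. Cyp4a32 (11.52, 11.58 and 11.47 against 10.98, 10.32 and 11.13) had -0.71 with an adjusted p of 0.060. Group arrays were thus apart for 4 of 6 genes, all lower on HCD, while 14.9% of all genes had arrays apart in either direction.

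Cyp4a12a and Cyp4a12b differed from Control by -0.10 and 0.09 in log2 terms on HCD, with 95% intervals of -0.38 to 0.17 and -0.17 to 0.36. Several single arrays decide the calls for the other genes. Without HCD pool B the log2 fold change was -0.91 for Cyp4a14 (adjusted p = 0.21) and -0.68 for Cyp4a31 (adjusted p = 0.13), and no Cyp4a gene was DE. Without Control pool A or pool B, Cyp4a14 kept its size, -1.42 in both, with adjusted p of 0.052 and 0.059, and without HCD pool C Cyp4a10 (-1.0) and Cyp4a32 (-0.87) passed as well. Without both Control arrays that held raised squamous markers the values were -1.32 for Cyp4a14 and -0.86 for Cyp4a31. That fit keeps only Control pool C, the lowest Control array of both genes. On the liver arrays alone the adjusted p was 0.34 for Cyp4a14 and 0.20 for Cyp4a31, and no Cyp4a gene was DE.

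The treatments were then compared with HCD. On HCD+Gl-2, 4 of the 6 genes were DE and higher than on HCD, beside 0.303% of all genes, and the same 4 genes, Cyp4a10, Cyp4a14, Cyp4a31 and Cyp4a32, were DE and higher on HCD+Sim, beside 0.258%. On HCD+Gl-1 none was DE by limma (0 of 6, with 4 of 6 at an unadjusted p under 0.05), beside 0.163% of all genes DE and 16.6% at an unadjusted p under 0.05. Cyp4a14 read 10.16, 9.12 and 10.60 in pools A, B and C on HCD+Gl-1. It read 10.74, 9.69 and 11.09 on HCD+Gl-2. It read 11.53, 10.63 and 12.00 on HCD+Sim. HCD+Sim and HCD+Gl-2 lay wholly above the 3 HCD arrays, of which the highest was 9.64, whereas HCD+Gl-1 pool B lay among them. The log2 fold changes against HCD were 0.99 ± 0.33 on HCD+Gl-1 (adjusted p = 0.096), 1.54 ± 0.33 on HCD+Gl-2 (adjusted p = 0.0062) and 2.42 ± 0.33 on HCD+Sim (adjusted p = 3e-05), that is 1.99-, 2.90- and 5.36-fold.

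The 3 genes of the Cyp4a10 group had smaller log2 fold changes than Cyp4a14. Cyp4a10 read 11.05, 10.57 and 11.38 on HCD+Gl-2 and 11.14, 10.56 and 11.22 on HCD+Sim, above every HCD array, and its log2 fold changes were 0.93 (adjusted p = 0.029) and 0.90 (adjusted p = 0.0495). Cyp4a31 read 10.96, 10.45 and 11.13 on HCD+Gl-2 and 10.95, 10.36 and 11.18 on HCD+Sim, with log2 fold changes of 0.99 (adjusted p = 0.0043) and 0.98 (adjusted p = 0.0079). Cyp4a32 read 11.72, 11.24 and 11.98 on HCD+Gl-2 and 11.83, 11.35 and 12.14 on HCD+Sim, with 0.84 (adjusted p = 0.016) and 0.96 (adjusted p = 0.0066). All of these groups were apart from HCD, as were 15.2% of all genes on HCD+Gl-2 and 13.4% on HCD+Sim in either direction. On HCD+Gl-1 the same genes had log2 fold changes of 0.64, 0.52 and 0.55, with overlapping arrays and adjusted p of 0.13 to 0.17. Cyp4a12a and Cyp4a12b differed from HCD by 0.21 and 0.04 on HCD+Gl-1, by -0.04 and -0.05 on HCD+Gl-2 and by 0.13 and 0.09 on HCD+Sim. None of these 6 values passed. The Cyp4a12a arrays were apart from HCD on HCD+Gl-1 and on HCD+Sim, as were 14.7% and 13.4% of all genes.

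**Figure D2:**
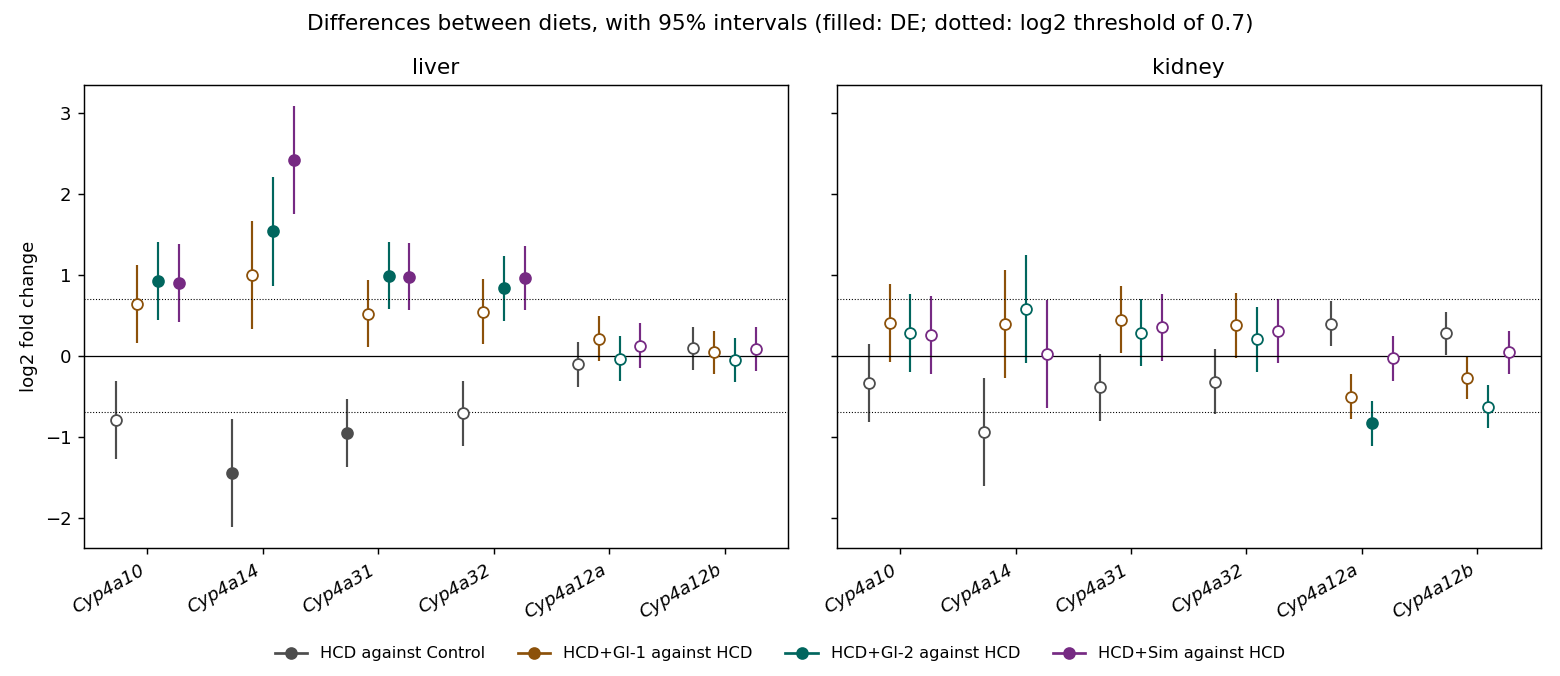
Log2 fold change (y axis) of each Cyp4a gene (x axis) between diets in liver (left) and kidney (right), with 95% intervals from limma; filled points were DE and dotted lines mark 0.7. In liver Cyp4a14 reached -1.45 on HCD and 2.42 on HCD+Sim against HCD, and in kidney the only DE value was that of Cyp4a12a on HCD+Gl-2, -0.84.

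The call for Cyp4a14 on HCD+Sim held when any single array was left out, with log2 fold changes of 1.88 to 2.80. Without pools A and B, the arrays with raised pancreas and muscle markers, Cyp4a14 was at 3.04, Cyp4a31 and Cyp4a32 at 1.33 and Cyp4a10 at 1.15. That fit keeps only pool C, the highest HCD+Sim array for each of these genes, so it cannot tell the markers from the pool. The other HCD+Sim calls did not all hold: without HCD pool B the values were 0.58 for Cyp4a10, 0.70 for Cyp4a31 and 0.72 for Cyp4a32, without HCD+Sim pool C they were 0.78, 0.80 and 0.78, and none of the 3 passed in either case. Cyp4a10 also missed without HCD pool A (1.00, adjusted p = 0.076) or HCD+Sim pool A (0.82, adjusted p = 0.11). On HCD+Gl-2, no gene was DE without HCD pool B, with log2 fold changes of 0.99 for Cyp4a14, 0.71 for Cyp4a31, 0.61 for Cyp4a10 and 0.59 for Cyp4a32, nor without HCD+Gl-2 pool C, with 1.25, 0.85, 0.74 and 0.67 in the same order; without HCD+Gl-2 pool A, Cyp4a14 and Cyp4a31 passed and Cyp4a10 (0.90) and Cyp4a32 (0.80) did not. With only pool B left of HCD+Gl-2, the pool without raised immediate early genes, the values were 0.72, 0.60, 0.50 and 0.43. Pool B read lowest for these genes on every cholesterol diet, and here it was set against all 3 HCD arrays. The fit thus cannot tell the immediate early genes from the pool. Within pool B, Cyp4a14 read 9.69 on HCD+Gl-2 and 7.88 on HCD. On HCD+Gl-1, leaving out pool B made all 4 genes DE, Cyp4a14 at 1.42, Cyp4a10 at 0.92, Cyp4a32 at 0.80 and Cyp4a31 at 0.73. That fit kept HCD pool B, so the groups no longer held the same pools. Within pools A and C, Cyp4a14 read 10.16 and 10.60 on HCD+Gl-1, and 9.38 and 9.64 on HCD. Pools were likewise unmatched in the fits without HCD pool B, which kept pool B of the treated group. Leaving out HCD pool C made Cyp4a14 DE on HCD+Gl-1 at 1.33. On the liver arrays alone no value passed for any treatment, the lowest adjusted p being 0.073 for Cyp4a14 on HCD+Sim.

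Against Control, no treated group had a DE Cyp4a gene by limma, 0 of 6 each, beside 0.322% of all genes on HCD+Gl-1, 0.584% on HCD+Gl-2 and 0.358% on HCD+Sim. At an unadjusted p under 0.05 there was 1 gene on HCD+Gl-1 (Cyp4a31, log2 fold change -0.43), none on HCD+Gl-2 and 1 on HCD+Sim (Cyp4a14, 0.97). On HCD+Gl-2 the values of Cyp4a10, Cyp4a14, Cyp4a31 and Cyp4a32 lay between 0.04 and 0.14. Their intervals were wide: that of Cyp4a14 ran from -0.58 to 0.76. With only pool B left of HCD+Gl-2, the lowest array of that group, all 4 lay below Control. Cyp4a14 was at -0.73, Cyp4a31 at -0.36 and Cyp4a10 and Cyp4a32 at -0.29 each. Cyp4a14 on HCD+Sim lay above all Control arrays, where 13.2% of all genes had arrays apart, and was 1.96-fold higher with an adjusted p of 0.15. It passed without HCD+Sim pool B (1.35, adjusted p = 0.034), and it was at 1.59 with only pool C, the highest array, left of HCD+Sim.

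The 3 treatments were also set against each other in liver. The extracts were given at the same 1.0%, and simvastatin at 0.03 g/100 g, so only the extracts are matched in dose. HCD+Gl-2 against HCD+Gl-1 gave no DE Cyp4a gene (0 of 6 by limma, 1 at an unadjusted p under 0.05), beside 0.172% of all genes. The differences were 0.54 for Cyp4a14, with a 95% interval of -0.12 to 1.21, and 0.47 for Cyp4a31, with an interval of 0.06 to 0.89, so in this fit Gl-2 being DE against HCD where Gl-1 was not is no shown difference between the extracts. HCD+Gl-1 against HCD+Sim gave 1 DE gene, Cyp4a14, beside 0.249% of all genes. It was lower by a log2 fold change of -1.43 ± 0.33 (adjusted p = 0.011), with all 3 arrays below all 3, beside 16% of all genes with arrays apart. Without HCD+Sim pool C it was -1.12 with an adjusted p of 0.099, and with only that pool, the highest array, left of HCD+Sim it was -2.04. HCD+Gl-2 against HCD+Sim gave none (0 of 6, 1 at an unadjusted p under 0.05), beside 0.285%, with -0.88 for Cyp4a14 and an interval of -1.55 to -0.22. It was at -1.70 with only pool B, the lowest array, left of HCD+Gl-2 and at -1.5 with only pool C, the highest array, left of HCD+Sim.

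HCD+Gl-2 was the liver group whose same-lettered arrays deviated together with those of HCD+Gl-1 and of HCD+Sim. Within pools A, B and C, HCD+Gl-2 minus HCD+Gl-1 was 0.57, 0.57 and 0.49 for Cyp4a14 and 0.60, 0.50 and 0.31 for Cyp4a31. HCD+Gl-2 minus HCD+Sim was -0.80, -0.94 and -0.91 for Cyp4a14. Each of these 3 sets of differences had a single sign and spread less than the arrays of the groups compared did. A single sign was not particular to them. Every other Cyp4a gene had it against HCD+Gl-1, and so did Cyp4a12a, Cyp4a12b and Cyp4a32 against HCD+Sim. With the letter as a replicate block and only the groups compared, a fit added after seeing the data, no Cyp4a gene was DE in either comparison: the adjusted p of Cyp4a14 was 0.35 against HCD+Gl-1 and 0.10 against HCD+Sim, beside 0.64 and 0.76 on the same arrays without the block. With only pool B left of HCD+Gl-2, its lowest array, and all 3 arrays of HCD+Gl-1 kept, Cyp4a14 was at -0.27, unlike the difference within pool B.

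The wide liver spread had a pattern by pool. In the 4 cholesterol groups, pool B was the lowest of the 3 arrays for Cyp4a10, Cyp4a14, Cyp4a31 and Cyp4a32 in 16 of 16 gene and diet combinations, and pool C was above both others in 15 of 16. Both Cyp4a12 genes, over their much narrower range, had pool B lowest as well. Over all 6 genes pool B was lowest in 24 of 24 combinations and pool C was above both others in 22 of 24. The genes deviated together within a diet, so these combinations are not independent observations. The share of all genes with either pattern was not computed. On Control the SD over the 3 pools was 0.01 to 0.11 for the 6 genes, and pool C was the lowest for all but Cyp4a12a, where it was the highest. RNA mixed from pools A and B would read between them, so these values do not follow the described makeup of pool C, and how far the 3 arrays of a group are independent is not settled here. Among all genes whose liver pools A and B differed by over 0.5, pool C lay between them for 63.8% to 73.8% depending on the diet. In kidney the same counts were 8 of 16 for pool B lowest and 9 of 16 for pool C above both. Mice were housed 4 to a cage and pooled by 4; whether a pool was a cage, and whether a letter marks a shared day or array batch, is not given in the sources used here, and its part in the diet differences was not tested. With the letter as a replicate block, 3 genes were DE on HCD against Control, Cyp4a32 passing as well (-0.71, adjusted p = 0.029), and 0 on HCD+Gl-1, 4 on HCD+Gl-2 and 4 on HCD+Sim against HCD. With pools A and C alone these counts were 1, 1, 4 and 3.

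**Figure D3:**
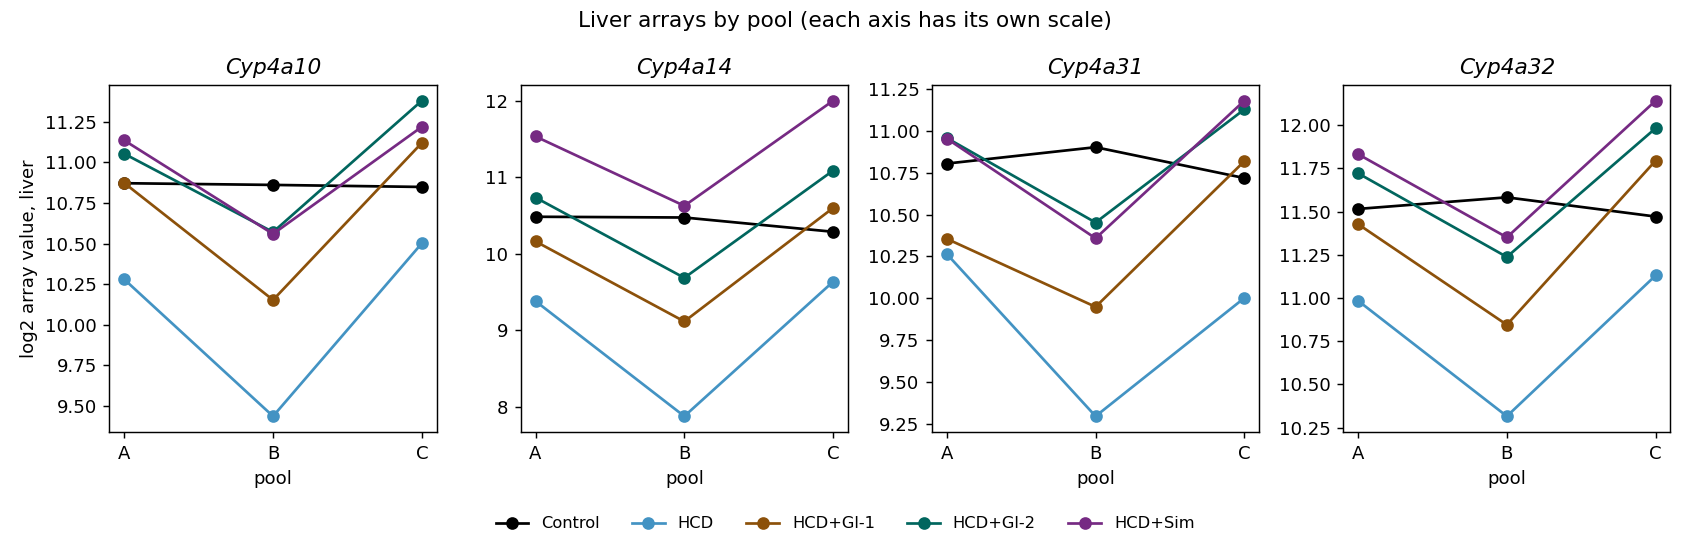
Log2 array value in liver (y axis, scaled per gene) of Cyp4a10, Cyp4a14, Cyp4a31 and Cyp4a32 in pools A, B and C (x axis); a line joins the arrays of a diet and implies no order of pools. Pool B was lowest on all 4 cholesterol diets, while the Control arrays were nearly level.

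Over the 15 liver arrays Cyp4a10, Cyp4a14, Cyp4a31 and Cyp4a32 moved as a block. Pearson's r between any 2 of them was 0.92 to 0.98, and 0.93 to 0.99 after each group's mean was taken out. The pools within a diet thus deviated together, though not always in the same order. On HCD, Cyp4a31 read higher in pool A (10.26) than in pool C (10.00), while Cyp4a10, Cyp4a14 and Cyp4a32 read higher in pool C. These r describe arrays that share libraries and near-identical targets, and carry no p. Cyp4a12a and Cyp4a12b had r of 0.30 to 0.51 with the 4 genes in liver and 0.48 with each other, and of 0.71 to 0.86 and 0.59 after group means were taken out, so within a diet their small differences between pools ran the same way as those of the 4 genes. The genes whose liver pattern was most like that of Cyp4a14, by r over the same 15 arrays, were Abhd2 (0.94), Retsat (0.94), Crat (0.93), Slc25a20 (0.87) and Slc10a3-ubl4 (0.87). Retsat encodes retinol saturase, Crat carnitine acetyltransferase and Slc25a20 the mitochondrial carnitine carrier. For Cyp4a12a they were Hsp90b1 (0.93), Dnajb11 (0.92), Fgfr2 (0.88), Snapc5 (0.88) and Pdia4 (0.87), of which Hsp90b1, Dnajb11 and Pdia4 encode chaperones of the endoplasmic reticulum. Cyp4a12a itself spanned only 0.38 on the log2 scale in these arrays.

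In kidney both Cyp4a12 genes varied with diet. There the F test over the 5 diets called Cyp4a12a (adjusted p = 0.00029) and Cyp4a12b (0.0089), 2 of 6 genes beside 1.16% of all genes, and not Cyp4a14 (0.51) or the 3 genes of the Cyp4a10 group (0.93 or more). Cyp4a14 nonetheless had the widest kidney range of the 6, 2.50-fold against 2.16-fold for Cyp4a12a and 1.81-fold for Cyp4a12b, and with the spread of the kidney arrays alone it passed as well (adjusted p of 0.0068, beside 0.0054 and 0.018). Without HCD+Gl-2 pool A or pool C, 1 of the 6 passed. Cyp4a12a read 11.17, 11.20 and 11.50 in Control pools A, B and C. It read 11.67, 11.82 and 11.59 on HCD and 11.53, 11.72 and 11.73 on HCD+Sim. It read 11.15, 10.93 and 11.47 on HCD+Gl-1 and 10.85, 11.01 and 10.70 on HCD+Gl-2. HCD and HCD+Sim were thus highest and overlapped, Control and HCD+Gl-1 followed and overlapped, and HCD+Gl-2 was lowest, overlapping HCD+Gl-1 alone.

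On HCD+Gl-2 against HCD in kidney, Cyp4a12a was DE and lower, by a log2 fold change of -0.84 ± 0.14 (1.78-fold, adjusted p = 0.00017), 1 of 6 genes beside 0.335% of all genes. The call held without each single array, at -0.91 to -0.76, and on the kidney arrays alone (adjusted p = 0.0017). Cyp4a12b read 10.57, 10.76 and 10.47 on HCD+Gl-2 and 11.31, 11.32 and 11.07 on HCD, without overlap, beside 20.4% of all genes with arrays apart. Its log2 fold change of -0.63 had an adjusted p of 0.0055 and was below the fold threshold, which it passed without HCD+Gl-2 pool B (-0.71) or HCD pool C (-0.71). The same 15 immediate early genes gave log2 sums of 13.20 to 13.66 in all 3 HCD+Gl-2 kidney arrays and 11.52 to 12.05 in the other kidney arrays, and 13 of the 15 were DE and higher than on HCD; their part in the Cyp4a12 difference was not tested. Against Control, HCD+Gl-2 differed by -0.44 for Cyp4a12a and -0.35 for Cyp4a12b, both with arrays apart, as were 18.3% of all genes. Neither was DE (0 of 6 by limma, 2 at an unadjusted p under 0.05, beside 0.217% of all genes DE).

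On HCD against Control in kidney, no Cyp4a gene was DE (0 of 6 by limma, 3 at an unadjusted p under 0.05), beside 0.0408% of all genes, but the arrays were apart for 5 of 6, against 13.2% of all genes. Cyp4a14 read 9.86, 9.77 and 9.43 on Control and 8.72, 8.80 and 8.68 on HCD. Its log2 fold change was -0.95 ± 0.33 with an adjusted p of 0.67. On the kidney arrays alone, where Cyp4a14 varied less, the same difference had an adjusted p of 0.016 and was DE, as was HCD+Sim against Control (-0.93, adjusted p = 0.016). Cyp4a10, Cyp4a31 and Cyp4a32 lay below Control by log2 fold changes of -0.34, -0.39 and -0.32, and Cyp4a12a lay above it by 0.40 with its arrays apart.

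HCD+Gl-1 and HCD+Sim gave no DE Cyp4a gene against HCD in kidney, 0 of 6 each by limma, with 3 and 0 at an unadjusted p under 0.05, beside 0.131% and 0.14% of all genes. Cyp4a12a was at -0.51 on HCD+Gl-1 (adjusted p = 0.17, arrays apart, as for 13.8% of all genes) and at -0.03 on HCD+Sim. Cyp4a14 was at 0.39 on HCD+Gl-1 and 0.02 on HCD+Sim, with intervals of -0.28 to 1.06 and -0.65 to 0.69. Against Control, neither HCD+Gl-1 (0 of 6, 0 at an unadjusted p under 0.05) nor HCD+Sim (0 of 6, 3 at an unadjusted p under 0.05) gave a DE Cyp4a gene in the 45-array fit, beside 0.00906% and 0.0317% of all genes.

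In kidney, the r between Cyp4a12a and Cyp4a12b over 15 arrays was 0.98, that between Cyp4a10, Cyp4a31 and Cyp4a32 was 0.92 to 0.97, and Cyp4a12a had r of -0.64 with Cyp4a14. The genes whose kidney pattern was most like that of Cyp4a12a were Srd5a1 (0.90), Azgp1 (0.89), Fmo5 (0.89), Srd5a2 (0.89) and Tbc1d19 (0.89); Srd5a1 and Srd5a2 encode the steroid 5-alpha reductases that make dihydrotestosterone. For Cyp4a14 they were Fga (0.90), Pdxk-ps (0.88), Slc38a3 (0.88), Cdh20 (0.88) and Car11 (0.88). Of 9 androgen-dependent kidney genes none was DE in kidney on HCD+Gl-2 against HCD. At an unadjusted p under 0.05 there were 4 of the 9, 3 lower and 1 higher, beside 8.97% of all genes.

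**Figure D4:**
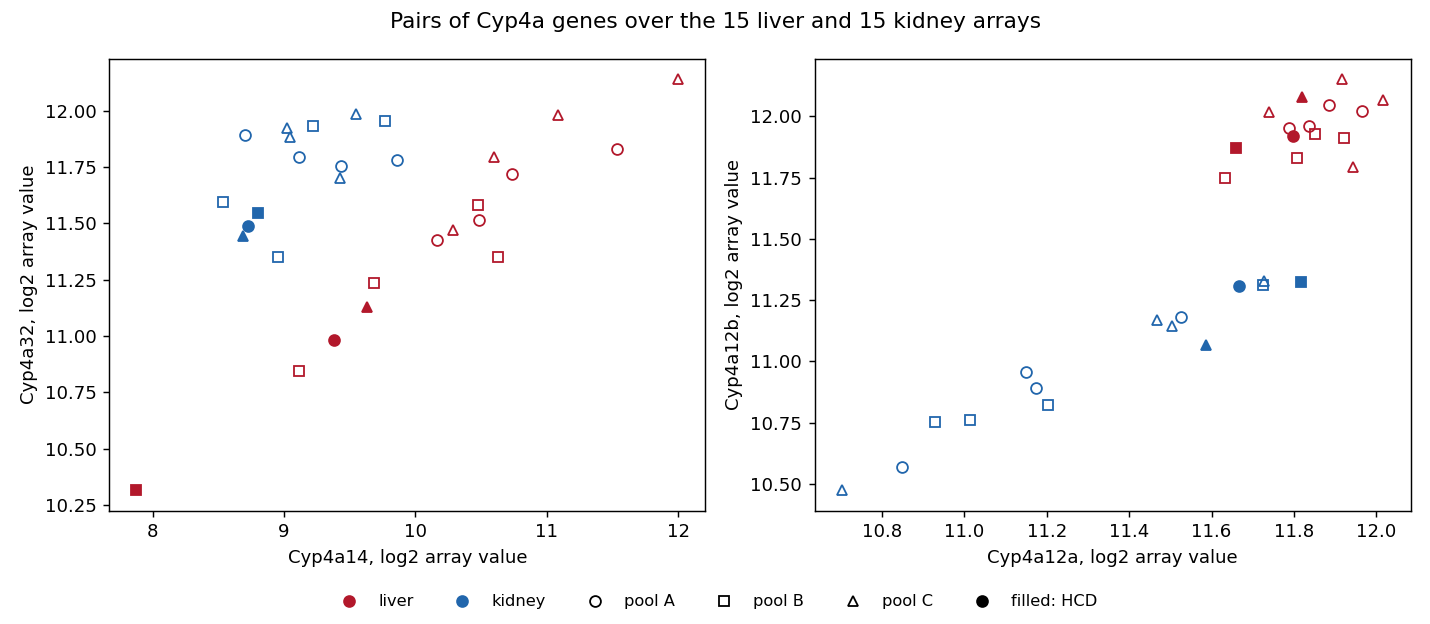
Log2 array values of Cyp4a32 against Cyp4a14 (left) and of Cyp4a12b against Cyp4a12a (right), 1 point an array, over 15 liver and 15 kidney arrays; symbols give the pool and filled points are HCD. The liver arrays spread along a line on the left from 7.88 to 12.00 in Cyp4a14 and bunch on the right, while the kidney arrays spread along a line on the right from 10.70 to 11.82 in Cyp4a12a.

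Liver and kidney were then compared on each diet. Cyp4a12b was DE and higher in liver on all 5 diets (0.72 on HCD to 1.3 on HCD+Gl-2 on the log2 scale). Cyp4a31 was DE and lower in liver on all 5, by log2 differences of -0.96 (HCD+Gl-2) to -1.67 (HCD), and its kidney values, 11.45 to 12.10, all lay above its liver values, 9.30 to 11.18. Cyp4a12a was DE and higher in liver on HCD+Gl-1 (0.79) and HCD+Gl-2 (0.87). It differed by 0.57 on Control (adjusted p = 0.00063, below the fold threshold), 0.22 on HCD+Sim and 0.07 on HCD, the diets being ordered by where kidney Cyp4a12a stood. Cyp4a14 was DE and higher in liver on HCD+Sim (2.63), HCD+Gl-2 (1.19) and HCD+Gl-1 (0.83), with 0.73 on Control and 0.23 on HCD. Cyp4a10 and Cyp4a32 were DE on none. Their largest differences were -0.36 and -0.68, both on HCD. The counts of DE genes were 2 on Control, 2 on HCD, 4 on HCD+Gl-1, 4 on HCD+Gl-2 and 3 on HCD+Sim, of 6, beside 16.8%, 16.7%, 17%, 17% and 17.3% of all genes.

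Single arrays changed some of these organ calls. On HCD, Cyp4a12b fell under the fold threshold without liver pool C (0.66) or kidney pool C (0.64), Cyp4a32 passed it without liver pool A (-0.77), liver pool C (-0.84) or kidney pool C (-0.71), and Cyp4a14 became DE without liver pool B (0.77). On HCD+Gl-1, Cyp4a14 lost its call without liver pool A (0.73), liver pool C (0.51) or any 1 kidney array (0.79 to 0.88), Cyp4a12a lost its call without kidney pool B (0.66), and Cyp4a32 gained 1 without liver pool C (-0.73). On Control, HCD+Gl-2 and HCD+Sim no call changed when any single array was left out. With only liver pool C left of HCD+Sim, its highest array, Cyp4a31 was at -0.70. With only liver pool B left of HCD+Gl-2, its lowest array, Cyp4a14 was at 0.37.

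**Figure D5:**
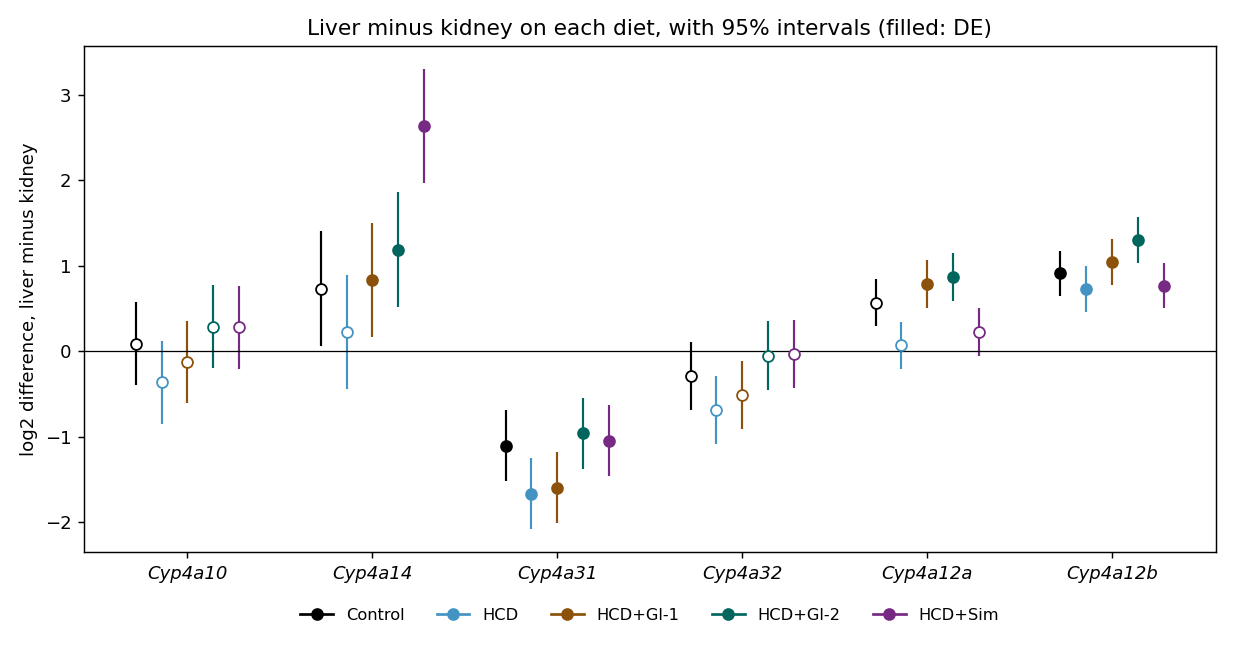
Log2 difference, liver minus kidney (y axis), of each Cyp4a gene (x axis) on each diet (colour), with 95% intervals from limma; filled points were DE. Cyp4a12b lies above 0 and Cyp4a31 below 0 on every diet, and Cyp4a14 ranges from 0.23 on HCD to 2.63 on HCD+Sim.

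Whether a diet acted differently in the 2 organs was tested as the liver response minus the kidney response. For HCD+Sim against HCD, 3 of 6 genes had an unadjusted p under 0.05, beside 9.59% of all genes. Cyp4a14 alone was DE, 1 of 6 genes beside 0.254% of all genes. Its difference was 2.40 ± 0.47 (adjusted p = 0.0063), from a liver response of 2.42 and a kidney response of 0.02. The call held without each of the 12 arrays involved, at 1.86 to 2.78, but on liver and kidney arrays alone the adjusted p was 0.053. With only pool C, the highest array, left of liver HCD+Sim the difference was 3.02. For HCD+Gl-2 against HCD, 5 of 6 genes had an unadjusted p under 0.05, beside 8.89% of all genes, among them Cyp4a14 (0.96, adjusted p = 0.55). Cyp4a12a alone was DE, with a difference of 0.80 ± 0.19 (adjusted p = 0.038), 1 of 6 beside 0.326%. It came from a liver response of -0.04 and a kidney response of -0.84. It kept its size, 0.72 to 0.88, without each single array, but passed in only 3 of those 12 fits; it was lost without HCD pool A, B or C of liver (0.82, 0.75 and 0.83), HCD+Gl-2 pool A or C of liver (0.76 and 0.79), HCD pool A or B of kidney (0.81 and 0.73) and HCD+Gl-2 pool A or C of kidney (0.79 and 0.72). With only pool B, the lowest array, left of liver HCD+Gl-2 it was 0.71. With only pools A and B it was 0.79 (adjusted p = 0.14), and on liver and kidney arrays alone the adjusted p was 0.0062.

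For HCD against Control and HCD+Gl-1 against HCD no Cyp4a response was DE between the organs (0 of 6 each by limma), beside 0.149% and 0.222% of all genes. At an unadjusted p under 0.05 there was 1 gene each, beside 7.13% and 10.4% of all genes. The HCD responses of Cyp4a14, -1.45 in liver and -0.95 in kidney, differed by -0.51 with an interval of -1.45 to 0.44. For HCD+Gl-1 the gene at an unadjusted p under 0.05 was Cyp4a12a (0.72, adjusted p = 0.11); it passed without HCD+Gl-1 pool B of liver (0.74, adjusted p = 0.045) or pool C of kidney (0.86, adjusted p = 0.033) and on liver and kidney arrays alone (adjusted p = 0.025).

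Few of the other genes of the pathway were DE in liver. Of 10 other Cyp4 genes measured, none was DE on HCD, HCD+Gl-1, HCD+Gl-2 or HCD+Sim in either organ, and no log2 fold change exceeded 0.38 in size. None of 5 electron donors of P450 enzymes and none of 9 alcohol and aldehyde dehydrogenases that follow CYP4A was DE in these 8 comparisons. At an unadjusted p under 0.05 there were 0 to 3 genes of each of these lists. The electron donors had 3 of 5 on liver HCD+Sim against HCD (2 higher, 1 lower), beside 11.7% of all genes. In liver they had 2 of 5 each on HCD against Control and on HCD+Gl-1 and HCD+Gl-2 against HCD. The shares of all genes there were 10.3%, 16.6% and 12.6%. The dehydrogenases had 3 of 9 on liver HCD against Control (2 higher, 1 lower). Among 19 genes of peroxisomal oxidation in liver, Abcd2, a fatty acyl-CoA transporter, was DE and lower on HCD (-1.02). Acot3, a peroxisomal thioesterase, was DE and higher on HCD+Sim (0.89), and none was DE on HCD+Gl-1 or HCD+Gl-2 against HCD. At an unadjusted p under 0.05 there were 8 on HCD against Control (6 lower), beside 10.3% of all genes. Against HCD there were 9 on HCD+Gl-1 (8 higher), 7 on HCD+Gl-2 and 13 on HCD+Sim (all higher in both), beside 16.6%, 12.6% and 11.7%.

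Among 25 further PPAR alpha targets in liver, Pdk4, the kinase that shuts pyruvate dehydrogenase, was DE and lower on HCD (-0.78). At an unadjusted p under 0.05 there were 9 on HCD against Control (8 lower), beside 10.3% of all genes. None was DE on HCD+Gl-1, HCD+Gl-2 or HCD+Sim against HCD, with 12, 10 and 13 of 25 at an unadjusted p under 0.05, beside 16.6%, 12.6% and 11.7% of all genes. The list's median log2 fold changes were 0.20, 0.12 and 0.21, beside -0.01, 0.01 and 0.03 over all genes. In kidney, 1 of the 25, Pdk4 (0.71), was DE and higher on HCD+Gl-2, with 13 at an unadjusted p under 0.05, beside 8.97% of all genes. The other kidney comparisons of Pdk4 were picked out after their values were seen: it was also DE and higher on HCD+Gl-1 (1.1) and HCD+Sim (0.95) against HCD. On HCD against Control in kidney, 1 of the 25 was DE and 9 had an unadjusted p under 0.05 (8 lower), beside 4.47% of all genes. Against HCD, 12 on HCD+Gl-1 and 6 on HCD+Sim had an unadjusted p under 0.05, all higher, beside 4% and 6.19%.

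Of 12 receptors and cofactors none was DE in these 8 comparisons, with 0 to 4 at an unadjusted p under 0.05. The 4 were in liver on HCD against Control, 2 higher and 2 lower, beside 10.3% of all genes. Ppara differed by -0.04, 0.20, 0.19 and 0.12 in liver and by -0.12, 0.04, 0.32 and 0.17 in kidney, in the order HCD against Control and then, against HCD, both extracts (HCD+Gl-1 first) and HCD+Sim. In the same order, liver Pparg differed by 0.65 (adjusted p = 3.6e-05, below the fold threshold), -0.23, -0.15 and 0.03, and liver Ppard by -0.05, -0.17, -0.06 and 0.06. In kidney, Pparg and Ppard stayed between -0.32 and 0.08.

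Some genes of lists outside the pathway were DE as well. In liver, 2 of 10 female-biased genes, Cyp2b9 (3.20) and Cyp3a44 (1.21), were DE and higher on HCD, and Cyp2b9 was DE and lower on HCD+Gl-2 against HCD (-3.17) and on HCD+Gl-1 against HCD+Sim (-1.70). None of 12 male-biased liver genes was DE in these comparisons. Cyp2c38, a member of the Cyp2c family whose enzymes make epoxides of arachidonic acid, was DE and higher on HCD (0.79) and lower on HCD+Gl-2 (-0.95). On HCD+Gl-1 against HCD, where no Cyp4a gene was DE, 3 genes of these lists picked out after their values were seen were DE too: the male-biased Cyp7b1 (0.98), Cyp2b9 (-2.08) and Cyp2c38 (-0.86). The clock genes Npas2 and Ciart were DE on HCD+Gl-2 in liver (-0.82 and 1.23) and in kidney (-0.76 and 0.84), and Socs2 (1.07), a target of growth hormone signalling, and Ptgs2 (0.94), a prostaglandin synthase, were DE and higher in kidney.

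Markers of other tissues and early-response genes changed in the same comparisons. On HCD+Gl-2, 9 of 15 immediate early genes were DE and higher in liver, among them Egr1 (2.47), Fos (1.88) and Jun (1.67). On HCD+Sim, 10 of 11 pancreas acinar genes, among them Ctrb1 (1.83) and Cpa1 (1.51), and 4 of 9 skeletal muscle genes, Myh1 (1.27), Acta1 (1.19), Myh4 (1.01) and Myh2 (0.83), were DE and higher. On HCD against Control, 4 of 10 squamous epithelium genes, Krt4 (-1.59), Krtdap (-1.45), Krt13 (-1.19) and Sprr3 (-1.18), and 1 skeletal muscle gene, Myh1 (-1.03), were DE and lower.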

How the data were processed

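RNA of liver, kidney and brain was hybridized to 45 Affymetrix mouse gene st v1.0 arrays. The authors applied RMA background correction, quantile normalization and ComBat (its batches are not given in the sources used here), kept for each gene the probe set of highest interquartile range, and deposited the values on the log2 scale. Organ, diet and pool letter came from sample titles. Here, 15 group means were fitted to all 45 arrays and 22080 genes with limma 3.58.1 in R 4.3.3, with Benjamini-Hochberg adjustment within each comparison; DE meant a log2 fold change over 0.7 in size and an adjusted p of at most 0.05, after the study's rule. Intervals are 95% intervals of this fit. The number of arrays limits the precision. The fit was tested on simulated data with errors independent between arrays and a single spread per gene. Pools that deviate together and organs of unequal spread were not simulated.

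The members and gene lists were chosen with earlier results of these data known. A gene of these lists is not reported here and was left out of their counts. Named beside the members are the list genes DE in a diet comparison in which a member was DE (large lists by example), Ppara, Pparg and Ppard, and the 5 genes with the highest Pearson r with Cyp4a14 and with Cyp4a12a in liver and in kidney. Promoter sequences are those of RefSeq on GRCm38.p6. Same-lettered arrays deviated together, with r over 0.1 for all 3 letters, only between liver HCD+Gl-2 and liver HCD+Gl-1 or HCD+Sim, among 10 pairs of liver groups, and between brain HCD+Gl-2 and brain Control; the pairing is a hint from the data, and the block changed no call between these liver groups. Alternatives were fits on the organs or groups compared, on pools A and B, with the pool letter as a block, on genes with a mean of at least 5, after quantile normalization again, with trend and robust moderation, without a fold threshold and without each array; fits on pools A and C, with the block on the paired liver groups alone and without arrays of raised markers were added after seeing the data.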

Additional observations from a re-analysis of the deposited data

Results flagged for a closer look

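A diet difference that differed between liver and kidney by a test of the difference itself was found for 2 Cyp4a genes. Cyp4a14 on HCD+Sim against HCD had a liver minus kidney response of 2.40 on the log2 scale (limma adjusted p = 0.0063, 95% interval 1.46 to 3.35). It passed without each of the 12 single arrays (1.86 to 2.78), with pools A and B only (2.59, adjusted p = 0.020) and with pools A and C only (2.1, adjusted p = 0.0011), and missed on liver and kidney arrays alone (adjusted p = 0.053). Cyp4a12a on HCD+Gl-2 against HCD had a liver minus kidney response of 0.80 (adjusted p = 0.038, interval 0.40 to 1.19), carried by the kidney value of -0.84 beside a liver value of -0.04. It passed on liver and kidney arrays alone (adjusted p = 0.0062) and missed with pools A and B only (0.79, adjusted p = 0.14), with pools A and C only (0.81, adjusted p = 0.15) and without 9 of the 12 single arrays (0.72 to 0.83 in those fits).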

How the results depend on the processing

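Counts of DE Cyp4a genes depended most on which arrays set the spread. On the arrays of the organs compared, the liver counts were 0 on HCD against Control (2 in the 45-array fit), 0 on HCD+Gl-2 (4) and 0 on HCD+Sim (4) against HCD and 0 on HCD+Gl-1 against HCD+Sim (1), the liver F test called 0 (4), the kidney counts were 1 on HCD (0) and 1 on HCD+Sim (0) against Control, and the response counts were 1 on HCD+Gl-1 (0) and 0 on HCD+Sim (1). On the groups compared alone they were 0, 0, 0 and 0 for the same 4 liver comparisons, 1 for kidney HCD against Control and 0 for the HCD+Sim response; this fit was not run for the F tests. With pools A and B only, liver counts were 4 on HCD, 1 on HCD+Gl-2, 2 on HCD+Sim and 0 on HCD+Gl-1 against HCD+Sim, and the HCD+Gl-2 response count was 0. With pools A and C only they were 1 on HCD, 1 on HCD+Gl-1 against HCD, 1 on HCD+Sim against Control and 1 on HCD+Gl-2 against HCD+Sim (0 in each of the last 3), and 0 for the HCD+Gl-2 response. Without a fold threshold kidney HCD+Gl-2 against HCD gave 2 (1).

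Each fit without the liver arrays of raised squamous, immediate early or pancreas markers left 1 array in a group, so no count is given for it. Leaving out single arrays gave liver counts of 0 to 4 on HCD, 0 to 4 on HCD+Gl-1, 0 to 4 on HCD+Gl-2 and 1 to 4 on HCD+Sim, 0 to 1 on HCD+Sim against Control and 0 to 1 on HCD+Gl-1 against HCD+Sim, 1 to 2 on HCD+Gl-2 in kidney, 2 to 4 between the organs on HCD+Gl-1, 0 to 1 for the HCD+Gl-1 response, 0 to 1 for the HCD+Gl-2 response, 2 to 4 in the liver F test and 1 to 2 in the kidney F test. Directions reversed in 3 values, none of them DE: Cyp4a14 on HCD+Gl-2 against HCD+Gl-1 was -0.27 without the liver HCD+Gl-2 arrays A and C (0.54 otherwise), and its HCD response difference was 0.039 without liver HCD pool B (-0.84 to 0.039 over single arrays left out) and 0.060 with pools A and C (-0.51 otherwise). The filter on means of at least 5, the renewed quantile normalization and the trend and robust moderation left all 31 counts within 1.5 times. Genes under 0.3 in size and not DE changed sign in 103 of 1185 values.

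With a replicate block, 39 of 42 counts were as without it. The block of diet and pool letter on liver and kidney arrays gave 1 gene for the HCD+Gl-1 response (0 otherwise), Cyp4a12a with an adjusted p of 0.043. The block of the pool letter gave 3 genes on liver HCD against Control. The causes of these shifts were not tested.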
